A study of Mus musculus with 8 samples.

Results

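The genes described here encode the voltage-gated sodium channels, the voltage-gated calcium channels and the hyperpolarization-activated HCN channels. They were taken by symbol alone, from the Scn, Cacna1, Cacna2d, Cacnb and Hcn families. The count table has 14884 genes, and 29 of them are described: 6 pore-forming and 3 β sodium channel subunits, 9 pore-forming, 4 α2δ and 4 β calcium channel subunits, and 3 HCN subunits. Scn9a was the only one of them below the low-count filter, so 28 were tested. Cacna1f, Scn4a, Scn10a and Scn11a are not analysed here.

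The libraries are polyadenylated RNA from the cortex of 4 wild-type male mice aged 3 months. A locked nucleic acid inhibitor of miR-218-5p (LNA218) went into the primary somatosensory cortex of one hemisphere, and a scrambled control (NC) into the other side of the same brain. Tissue was taken 10 days later, which gives 4 LNA218 and 4 NC libraries, 1 of each per animal. The animals are called mice 33 to 36, and the inhibitor was on the left only in mouse 35. All cells at the site were collected together and every control also carries an injection, so no uninjected cortex stands beside these values.

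Voltage-gated sodium channels open on depolarization and carry the rising phase of the action potential. Calcium channels turn depolarization into calcium entry, which triggers transmitter release at terminals and signalling to the nucleus in the cell body. HCN channels open on hyperpolarization, bind cyclic nucleotides and set the resting properties of dendrites and pacemaker cells. A pore-forming subunit makes the channel in each case, and the β and α2δ subunits mostly govern how much of it reaches the membrane and how it gates.

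Library totals ran from 17409882 to 25154657 estimated counts. All 8 cortical neuron markers were above 0 in every library, and their summed level was 767 to 1040.2 CPM (counts scaled to a common library total) in LNA218 and 887 to 955 CPM in NC. The sum over 9 choroid plexus markers was 2633 CPM in the LNA218 library of mouse 34 and 1724 CPM in that of mouse 36, against 24.8 to 88.9 CPM in the other 6, with 8 of the 9 above 0 in every library. Mitochondrially encoded transcripts made up 1.87% of the counts in the LNA218 library of mouse 34 and 2.36% in that of mouse 35, against 3.15% to 3.69% elsewhere.

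The sequences that help to read the values are the matches to the microRNA. Mature miR-218-5p, taken from RefSeq on GRCm38.p6, is made from chr5:48223966-48223986 and chr11:35616840-35616860, both on the plus strand of that build, in introns of the axon guidance genes Slit2 and Slit3. Its own level was not analysed here. Its seed, bases 2 to 8, is in capitals.
miR-218-5p: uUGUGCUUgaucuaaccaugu

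A messenger RNA pairs with this seed where its 3′ untranslated region (UTR) holds AAGCACA, called a 7mer-m8 match, or AAGCACAA, called an 8mer. The UTR used was that of the transcript with the longest coding sequence in GENCODE M21. Cacna1c and Cacnb1 have none there, and that of Cacna1d is 6 bases long, too short for a match. Of the 29 channel genes 27 have one, Cacna1d included. Of these, 11 hold at least 1 match, 13 matches in all, and 6 of the genes hold an 8mer: Cacna1g, Cacna1i, Hcn3, Scn2b, Scn4b and Scn9a. The 8mer windows are printed 5′ to 3′, with the match in capitals, because these are the strongest matches to the microRNA that was inhibited.
Cacna1g: tcccctcttcttgtaAAGCACAAgccgggg
Cacna1i: gcctgtccatcatcaAAGCACAAatgtctc
Hcn3: agccctgcctttattAAGCACAAgtacttg
Scn2b: cagctcatgagaacaAAGCACAAtatttca
Scn4b: gtgagaccaaagacaAAGCACAAgtacctt
Scn9a: gctgatgagccatttAAGCACAAaggggct

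Cacnb4, Hcn4, Scn1a, Scn2a and Scn3b hold 7mer-m8 matches. Those of Scn1a and Scn2a, paralogs on chromosome 2, lie in the same surroundings and share the 15 bases tAAGCACAgtattta.
Scn1a: aacaaataatgacgtAAGCACAgtatttat
Scn2a: caacgaaaatgatttAAGCACAgtatttac

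The transcripts also differ widely in base composition within a family, and the values below are read against it. GC content ran from 40.2% (Scn7a) to 65.4% (Hcn2) among the 29 genes. The median was 52.3% over the 24 channel genes with an average log2 CPM above 3, and 50.9% over all genes above that level.

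Between hemispheres, none of the channel genes reached an adjusted p under 0.05. The test was edgeR's quasi-likelihood test with the animal as a block, and over all 14506 tested genes the count was also 0 (0%), with a lowest adjusted p of 0.533. At an unadjusted p under 0.05 there was 1 channel gene of 28, Scn8a, against 1.7% of all tested genes. The CPM ranges of the groups overlapped for every one of the 28, where 1.38% of all tested genes had ranges apart. Fitted changes were below 0 for 21 of the 28, against 52.8% of all tested genes, and their median log2 fold change was -0.087 against -0.0096. Lower in LNA218 in 4 of 4 animals were Scn8a and Cacna1b (2 of 28, against 4.05% of all genes), and no channel gene was higher in 4 of 4 (0 of 28, against 4.58%). The median within-animal difference over the 28 genes was 0.022, -0.060, -0.024 and -0.16 in mice 33 to 36, and 0.00056, 0.018, -0.0035 and -0.0068 over all tested genes. Markers of fibroblasts separated the groups in their sum over 8 genes, all above 0 in every library. The sum was 102, 111, 129.97 and 144 CPM in NC and 161, 236, 206 and 171 CPM in LNA218 of mice 33 to 36. The median within-animal difference over the 8 was 0.91, 1.29, 0.72 and -0.068 (log2 CPM) in mice 33 to 36. Higher in 4 of 4 animals were 4 of the 8. All 8 had fitted changes above 0 with a median of 0.79, 7 with an unadjusted p under 0.05 and 0 with an adjusted p under 0.05 (edgeR, quasi-likelihood), and their part in the channel genes' values was not tested. In tissue pieces such as these, fewer cells of a type and less RNA per cell cannot be told apart.

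Among the pore-forming sodium channel subunits, Scn8a, which serves the distal axon initial segment and the nodes of Ranvier, had the highest level per length. In NC its level was 26.1 ± 2.42 CPM per kilobase of transcript (SD, n = 4). Scn2a, which is concentrated in the axons of excitatory neurons, followed at 20.8 ± 2.83 CPM per kilobase and Scn1a, prominent in fast-spiking interneurons, at 13.6 ± 1.61 (SD, n = 4). The NC ranges of Scn8a and Scn2a overlapped, while that of Scn1a lay below both. Scn3a, mainly a channel of the developing brain, stood far lower at 2.26 ± 0.455 CPM per kilobase (SD, n = 4). The sodium-sensing channel Scn7a and the peripheral channel Scn9a had 0.134 and 0.0587 CPM per kilobase, on 6 to 28 estimated counts per library.

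Scn8a had 304, 326, 303 and 260.0 CPM in the NC hemispheres of mice 33 to 36 and 266, 200.1, 295 and 217.6 CPM in the LNA218 hemispheres. It was lower on the LNA218 side in every animal, by least in mouse 35, while the ranges of the groups still overlapped. Its mean was 298 ± 27.7 CPM in NC and 245 ± 43.8 CPM in LNA218 (SD, n = 4). The log2 fold change was -0.30 (95% interval -0.58 to -0.013), with an unadjusted p of 0.0427 and an adjusted p of 0.999 (edgeR, quasi-likelihood). Without mouse 34 the value was -0.16, and with a term for the hemisphere it was -0.21, with adjusted p from 0.839 to 1 over all alternatives. The unadjusted p was 0.0868 without mouse 34, 0.105 without mouse 36, 0.202 with the hemisphere term and 0.0507 with upper-quartile scaling. Scn8a has no seed match in its 3′ UTR of 5.25 kilobases.

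For Scn2a the NC libraries had 189, 217.6, 181 and 156 CPM and the LNA218 libraries 214, 114, 187 and 153 CPM in mice 33 to 36. A single library, LNA218 of mouse 34, lay well below the rest, and the other 3 animals differed by 0.17, 0.048 and -0.028 on the log2 CPM scale. Scn1a showed the same shape, with 121, 124, 116 and 94.1 CPM in NC and 122, 69.2, 119 and 95.8 CPM in LNA218, and its differences outside mouse 34 were 0.013, 0.029 and 0.026. The fitted log2 fold changes were -0.18 (95% interval -0.60 to 0.23) for Scn2a and -0.19 (95% interval -0.56 to 0.18) for Scn1a, and neither passed. Scn3a had 19.3, 28.0, 20.8 and 18.3 CPM in NC and 24.1, 11.4, 17.6 and 20.3 CPM in LNA218, and its difference of -1.28 in mouse 34 was the lowest of the 24 channel genes with an average log2 CPM above 3. Its fitted value was -0.26 (95% interval -0.83 to 0.32). Scn7a, near the count floor, was at -0.014 (95% interval -0.82 to 0.80). Over the 5 tested pore-forming sodium subunits 5 were below 0, with a median of -0.19, and without mouse 34 it was 2 of 5 with a median of 0.023. The summed level of the 6 genes was 635, 698, 622 and 530.4 CPM in NC and 628, 396, 619.9 and 489 CPM in LNA218 of mice 33 to 36, with the widest gap in mouse 34.

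The β subunits of sodium channels are immunoglobulin-fold proteins that modify gating and act in cell adhesion. Scn2b had 68.0 ± 5.11 CPM per kilobase in NC, Scn3b 35.6 ± 5.74 and Scn4b 24.4 ± 4.69 (SD, n = 4).

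Scn2b, which carries an 8mer match, had 351, 315, 302 and 299 CPM in NC and 310.4, 327, 349 and 290.4 CPM in LNA218, a log2 fold change of 0.011 (95% interval -0.22 to 0.24). Scn3b had 149.6, 181, 127 and 134 CPM in NC and 177, 113, 136 and 109 CPM in LNA218. It differed by -0.16 (95% interval -0.52 to 0.20), with the lowest difference, -0.68, again in mouse 34. None of the 3 β subunits passed, and 2 were below 0.

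Scn4b, which shapes resurgent sodium current and is abundant in striatal projection neurons and fast-spiking cells, had 155, 103, 119 and 109 CPM in NC and 110.3, 129, 112 and 124 CPM in LNA218. It was lower on the LNA218 side in mice 33 and 35 and higher in mice 34 and 36, a log2 fold change of -0.015 (95% interval -0.34 to 0.31). The sum over 6 striatal neuron markers, all above 0 in every library, went the same ways, at 281, 122, 192 and 186 CPM in NC and 151, 279, 165 and 296 CPM in LNA218 of mice 33 to 36. These values were set side by side after both were seen, and the part of striatal tissue in the Scn4b values was not tested.

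**Figure D1:**
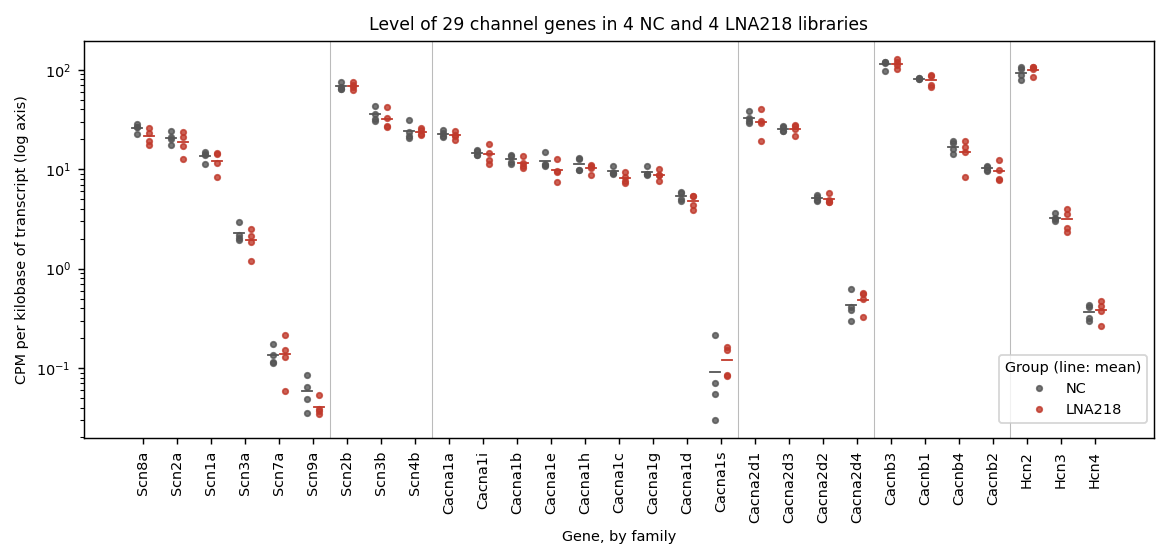
Level of each of the 29 channel genes as CPM per kilobase of transcript on a log axis, grouped by family, with 1 point per library and a line at the mean of each group of 4. Cacnb3 is highest at 114 CPM per kilobase in NC, Scn9a lowest at 0.0587, and NC and LNA218 points overlap for every gene.

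Per kilobase of transcript, Cacna1a, the P/Q-type channel of fast transmitter release, had the highest level of the pore-forming calcium channel subunits. It had 22.7 ± 1.63 CPM per kilobase in NC (SD, n = 4). The T-type Cacna1i followed at 14.7 ± 0.809 and the N-type Cacna1b at 12.7 ± 1.28. Next came the R-type Cacna1e between 10.8 and 14.9, the T-type Cacna1h at 11.4, the L-type Cacna1c at 9.49 and the T-type Cacna1g at 9.38 CPM per kilobase. The NC range of Cacna1a lay above that of Cacna1i, while from Cacna1i down to Cacna1g each overlapped with the next. Cacna1d, the other neuronal L-type subunit, was lower at 5.37 ± 0.507 CPM per kilobase, with a range below that of Cacna1g. Cacna1s, the channel of skeletal muscle, had 0.0920 CPM per kilobase on 4 to 23 estimated counts. The lead of Cacna1a depends on the measure: per kilobase of coding sequence Cacna1e ranked 12 and Cacna1a 13 of the 29 genes. Their mean NC levels were 179 and 180.0 CPM, and the transcript of Cacna1e has a 3′ UTR of 7.66 kilobases.

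Cacna1e, the R-type channel of dendrites and terminals, had 167, 223, 161 and 165 CPM in NC and 189, 112, 141 and 144 CPM in LNA218 of mice 33 to 36. The NC library of mouse 34 was the highest and its LNA218 library the lowest, so that animal differed by -0.99 on the log2 CPM scale. The log2 fold change was -0.30 (95% interval -0.71 to 0.11), and without mouse 34 it was -0.071. Cacna1c, which couples calcium entry to transcription, had 60.7, 72.2, 60.6 and 59.7 CPM in NC and 63.1, 48.6, 55.4 and 51.2 CPM in LNA218. It was lower in 3 of 4 animals and slightly higher in mouse 33, with a log2 fold change of -0.22 (95% interval -0.50 to 0.069), and without mouse 34 it was -0.097.

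Cacna1d had 33.1, 37.7, 38.5 and 31.8 CPM in NC and 35.1, 25.7, 35.2 and 28.4 CPM in LNA218, also lower in 3 of 4 animals, at -0.19 (95% interval -0.48 to 0.11) and at -0.066 without mouse 34. For Cacna1h the levels were 80.9, 107, 106 and 81.2 CPM in NC and 83.9, 87.7, 90.9 and 72.5 CPM in LNA218, a log2 fold change of -0.15 (95% interval -0.38 to 0.076). Of the 5 genes with the smallest unadjusted p among those below 0, these 4 made up all but Scn8a, with unadjusted p from 0.118 to 0.18 and an adjusted p of 0.999 each (edgeR, quasi-likelihood). Cacna1b, which works beside Cacna1a in transmitter release, had 85.5, 98.0, 100.4 and 81.7 CPM in NC and 83.1, 77.4, 97.5 and 73.3 CPM in LNA218. It was lower in 4 of 4 animals by small amounts, -0.041, -0.34, -0.042 and -0.16 on the log2 CPM scale, at a fitted -0.14 (95% interval -0.37 to 0.084) and -0.079 without mouse 34.

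Cacna1a, the highest of the family per kilobase of transcript, had 173, 182, 198 and 168 CPM in NC and 175, 172, 192 and 155 CPM in LNA218. Its differences of 0.014, -0.079, -0.041 and -0.12 had the smallest spread between animals of the 29 genes (0.056, SD, n = 4). Cacna1i, with an 8mer match, had 149, 138, 152 and 136 CPM in NC and 121, 143, 177 and 111 in LNA218, below its own control in mice 33 and 36 and above it in mice 34 and 35. Cacna1g, also with an 8mer match, had 74.3, 75.5, 91.2 and 73.6 CPM in NC and 63.4, 73.3, 85.1 and 73.9 CPM in LNA218. It differed by -0.091 (95% interval -0.31 to 0.13) and Cacna1i by -0.077 (95% interval -0.35 to 0.19). Cacna1s had a log2 fold change of 0.53 (95% interval -0.58 to 1.65), the largest positive value of the 28, on 0.187, 0.345, 0.438 and 1.33 CPM in NC and 1.01, 0.520, 0.526 and 0.947 CPM in LNA218. Without mouse 33 it was 0.048, and without mouse 36 it was 1.03. Of the 9 pore-forming calcium subunits 8 were below 0 with a median of -0.14, and without mouse 34 it was again 8 with a median of -0.079. With the hemisphere term it was 7, with -0.11, and with the GC and length correction 6, with -0.089.

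The α2δ subunits bring calcium channels to the membrane, and α2δ-1 and α2δ-2 are the binding sites of gabapentin. In NC, Cacna2d1 had 32.7 ± 4.24 CPM per kilobase, Cacna2d3 25.5 ± 1.54, Cacna2d2 5.09 ± 0.353 and Cacna2d4 0.428 ± 0.141 (SD, n = 4). Cacna2d1 had 128, 152, 120.1 and 114 CPM in NC and 159.9, 74.8, 114 and 121 CPM in LNA218, again with the LNA218 library of mouse 34 below all others, and fitted at -0.17 (95% interval -0.64 to 0.30). Cacna2d3 had 100.4, 97.5, 88.6 and 90.3 CPM in NC and 103, 101, 94.8 and 80.3 CPM in LNA218, and fitted at 0.0020 (95% interval -0.22 to 0.22). Without mouse 34 the value of Cacna2d1 turned to 0.11. Cacna2d4 had 2.20, 1.72, 2.36 and 3.65 CPM in NC and 2.87, 3.32, 3.25 and 1.89 CPM in LNA218, higher in 3 animals and lower in mouse 36, at 0.22 (95% interval -0.50 to 0.94). Cacna2d2 had 29.2, 26.2, 30.4 and 26.9 CPM in NC and 25.9, 25.97, 31.99 and 27.1 CPM in LNA218, furthest from its control in mouse 33. It was at -0.026 (95% interval -0.27 to 0.22), and 2 of the 4 genes were below 0.

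The calcium channel β subunits help the pore-forming subunit to reach the membrane and modify its gating. Per kilobase of transcript in NC, Cacnb3 had the highest level of the 29 genes, 114 ± 11.1 CPM, and Cacnb1 had 81.6 ± 1.61. Cacnb4 had 16.9 ± 2.26 and Cacnb2 10.2 ± 0.578 (SD, n = 4). Scn2b ranked 1 of the 29 both by NC CPM and per kilobase of coding sequence, where Cacnb3 ranked 4 and 3. Cacnb1, whose transcript used here has no 3′ UTR, ranked 3 per kilobase of transcript and 6 per kilobase of coding sequence. Cacnb3 had 300.4, 242, 289.8 and 299 CPM in NC and 250.3, 320.0, 274 and 295 CPM in LNA218, higher only in mouse 34, with a log2 fold change of 0.010 (95% interval -0.27 to 0.29). Cacnb1 had 183, 180.3, 187 and 179 CPM in NC, a narrow range, and 151, 200.1, 195 and 159 CPM in LNA218, a wider one, at -0.060 (95% interval -0.30 to 0.18). Cacnb4, whose 3′ UTR of 6.16 kilobases holds 2 matches, had 157 CPM in NC and 68.0 CPM in LNA218 of mouse 34 and differed by 0.079, -0.12 and 0.25 (log2 CPM) in mice 33, 35 and 36. Its fitted value was -0.24 (95% interval -0.75 to 0.27). Cacnb2 had 41.2, 42.9, 39.0 and 37.7 CPM in NC and 48.6, 31.5, 38.7 and 30.9 CPM in LNA218, higher in mouse 33 alone. It was at -0.13 (95% interval -0.44 to 0.19), at -0.015 without mouse 34 and at -0.24 without mouse 33, and no calcium channel β subunit passed.

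Hcn2 was the leading HCN subunit at 94.0 ± 13.01 CPM per kilobase in NC. Hcn3 had 3.26 ± 0.257 and Hcn4, the subunit of the cardiac pacemaker and of thalamic relay cells, 0.364 ± 0.0630 (SD, n = 4). Per library Hcn2 had 284, 249.8, 328 and 340.1 CPM in NC and 273, 341, 339 and 324 CPM in LNA218, above its control in mice 34 and 35 and below it in mice 33 and 36. The log2 fold changes were 0.091 (95% interval -0.17 to 0.35) for Hcn2, -0.083 (95% interval -0.43 to 0.26) for Hcn3 and 0.072 (95% interval -0.40 to 0.54) for Hcn4, and none passed. Hcn4 had 1.83, 2.61, 2.49 and 1.97 CPM in NC and 1.63, 2.60, 2.87 and 2.32 CPM in LNA218, with both groups over about the same range. Hcn3, which carries an 8mer match, had 11.9, 12.7, 14.4 and 13.1 CPM in NC and 10.4, 14.2, 16.02 and 9.42 CPM in LNA218, lower in mice 33 and 36 and higher in mice 34 and 35. In the order of all 29 genes by level per length in NC, 20 of the 28 pairs of neighbours overlapped.

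**Figure D2:**
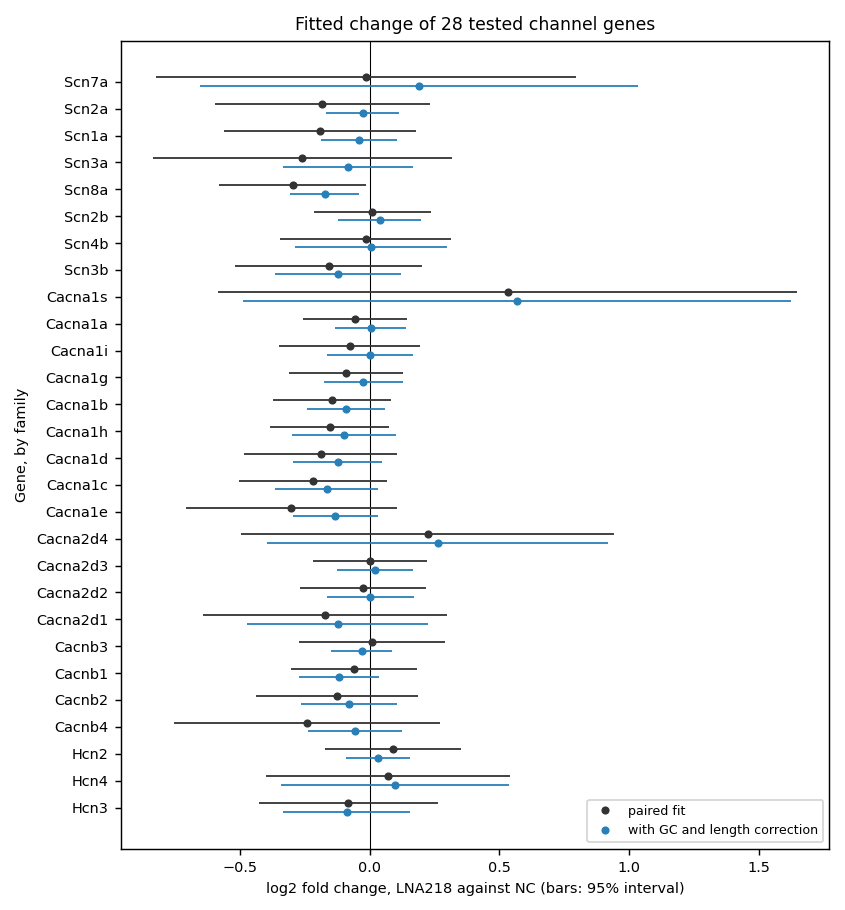
Fitted log2 fold change, LNA218 against NC, of the 28 tested channel genes with 95% intervals, from the paired fit (dark) and from the fit adjusted for GC content and length (blue). Scn8a is the only gene whose dark interval leaves out 0, and the blue intervals are narrower for most genes.

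In mice 33 and 34 the differences of the channel genes followed base composition, in opposite directions, and in mice 35 and 36 the relation was weak. In mouse 34 the 12 genes with the lower GC content differed by a median of -0.77 and the 12 with the higher by 0.020 (log2 CPM, 24 genes with an average log2 CPM above 3). In mouse 33 the order was turned around, with 0.13 and -0.19. The medians in mice 35 and 36 were -0.024 and -0.041, and -0.10 and -0.14. As a description, over these 24 genes, which share libraries, the rank correlation of the difference with GC content was -0.70, 0.81, 0.18 and -0.29 in mice 33 to 36. Over all 10261 genes above the same level it was -0.62, 0.69, 0.23 and -0.21. In each animal the sign over the channel genes was that over all genes. With transcript length, the rank correlation over the 24 genes was 0.14, -0.56, -0.34 and 0.050 in mice 33 to 36. Over all genes above that level it was 0.35, -0.57, 0.12 and -0.28, so the signs differed in mice 35 and 36. The part of base composition in the single fold changes was not tested beyond the corrected fit. The LNA218 library of mouse 34 is also the one with 2633 CPM of choroid plexus markers, 1.87% mitochondrial counts and 767 CPM of cortical markers against 949 CPM in its control. It also had 8825 CPM of 7 oligodendrocyte markers against 6868 CPM, and 236 CPM of fibroblast markers against 111 CPM, the highest of the 8 libraries for both lists. Unlike the cortical list, 2 other neuron lists were higher in it than in its control. The 8 excitatory neuron markers had 8527 against 7869 CPM, and the 9 interneuron markers 1397 against 1165 CPM. The part of these markers in these differences was not tested.

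**Figure D3:**
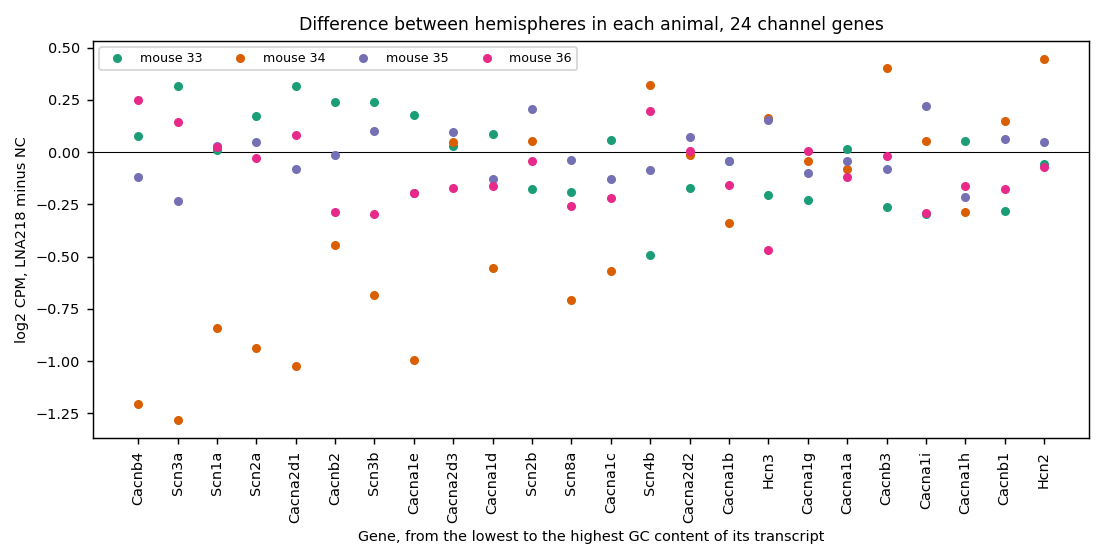
Difference in log2 CPM, LNA218 minus NC, in each animal (1 colour per mouse) for the 24 channel genes with an average log2 CPM above 3, placed from the lowest to the highest GC content. The points of mouse 34 climb from -1.20 for Cacnb4 to 0.45 for Hcn2, while those of mouse 35 stay between -0.24 and 0.22.

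The CPM ratio of Cacnb3 to Cacnb4 was 1.99, 1.54, 2.20 and 2.57 in NC and 1.57, 4.71, 2.26 and 2.14 in LNA218 of mice 33 to 36. The LNA218 library of mouse 34 had the highest ratio and its NC library the lowest. The GC content of these transcripts is 59.1% for Cacnb3 and 40.5% for Cacnb4, a pair picked after its values were seen.

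A fit that adjusts every library for the GC content and length of transcripts narrowed that spread. The SD of the within-animal differences between animals was narrower with the correction for 19 of the 24 genes, and its median went from 0.27 to 0.17 on the log2 scale. For Scn2a it went from 0.51 to 0.12 and for Cacnb3 from 0.28 to 0.059. Scn4b kept 0.36, and Cacna1a, Cacna1g, Cacna1h, Cacna2d3 and Scn2b became wider. The splines were fitted to these same libraries, and no share over all genes is given. The count of 19 therefore cannot be called particular to channel genes.

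With the correction 17 of the 28 genes were below 0, with a median of -0.036 against 0.0021 over all tested genes, and again none passed. Scn8a was at -0.17 (95% interval -0.31 to -0.041) with corrected differences of -0.25, -0.27, -0.044 and -0.13 in mice 33 to 36, an unadjusted p of 0.0159 and an adjusted p of 0.952 (edgeR, quasi-likelihood). Cacna1c was at -0.17 (95% interval -0.37 to 0.034) and Cacna1e at -0.13 (95% interval -0.29 to 0.032). Cacnb3 turned from 0.010 to -0.030. The narrowest corrected intervals were -0.15 to 0.088 for Cacnb3 and -0.092 to 0.16 for Hcn2, against -0.27 to 0.29 and -0.17 to 0.35 in the paired fit. The corrected intervals leave out the error of the splines, which were fitted to these same libraries.

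**Figure D4:**
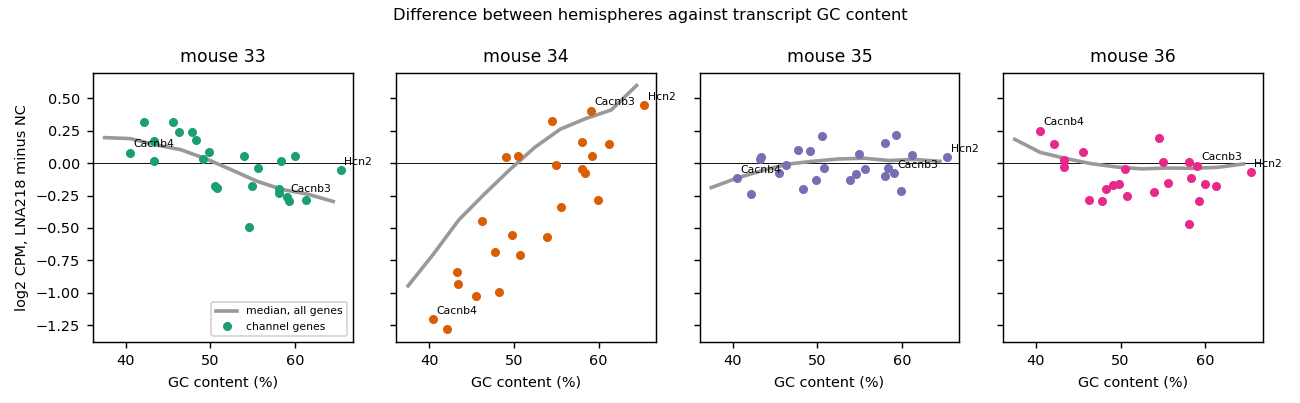
Difference in log2 CPM, LNA218 minus NC, against the GC content of the transcript, 1 panel per animal, for 24 channel genes (points) and the median of all genes in bins of GC content (grey line). The points rise with GC content in mouse 34, fall in mouse 33, and lie near 0 in mouse 35.

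The genes with a match to miR-218-5p were read against those without. Of the 26 tested channel genes with an annotated 3′ UTR, 10 hold a match (38.5%), against 14.2% of 13693 tested genes. Channel genes have longer 3′ UTRs, with a median of 1.98 against 1.002 kilobases, and per kilobase of UTR they hold 0.208 matches against 0.114. The median log2 fold change was -0.087 over the 10 with a match, 2 of them above 0, and -0.090 over the 16 without, 5 of them above 0. The 16 include Cacna1d, whose annotated 3′ UTR of 6 bases cannot hold a match. Over all tested genes the medians were -0.040 with a match and -0.0029 without. With the GC and length correction the medians of the channel genes were -0.026 and -0.054. The 5 tested genes with an 8mer lay between -0.091 (Cacna1g) and 0.011 (Scn2b), each with an interval that held 0. Scn9a, the sixth gene with an 8mer, was not tested and had 0.843, 0.640, 0.481 and 0.347 CPM in NC and 0.338, 0.360, 0.382 and 0.526 CPM in LNA218.

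Genes listed here as partners of these channels were taken from lists written for them. Not every listed protein binds or anchors the channels described, and binding was not tested. Of the 12 sodium channel partners, which include the axon initial segment scaffold Ank3, the Fgf11 to Fgf14 modulators and the leak channel Nalcn with its subunits, 0 passed and 12 were below 0, with a median of -0.15. Without mouse 34 it was 7 of 12, with a median of -0.011, and with the GC and length correction 11 of 12, with -0.075. Nalf1, an auxiliary subunit of the Nalcn channel, had the smallest unadjusted p of the list, at -0.26 ± 0.12 (log2 ± SE), lower in 4 of 4 animals. No GC content or length was found for Nalf1, so the corrected fit left it unadjusted, also at -0.26. The adhesion protein Nfasc of the initial segment was at -0.12 ± 0.093. Of the 17 tested calcium channel partners 9 were below 0, with a median of -0.016. Without mouse 34 it was 11, with -0.016, and with the GC and length correction 12, with -0.060. The smallest unadjusted p-values of this list were those of Cacng5 at 0.20 ± 0.14 and the active-zone protein Erc2 at -0.20 ± 0.14 (log2 ± SE). Of the 4 tested HCN partners all were below 0, with a median of -0.082, and with the GC and length correction 3 of 4, with -0.0065. Their smallest unadjusted p-values were those of the ubiquitin ligase Nedd4l at -0.15 ± 0.12, also a sodium channel partner, and the actin crosslinker Flna at -0.086 ± 0.098. The fifth HCN partner, the auxiliary subunit Kcne2, which is abundant in choroid plexus, was below the low-count filter and not tested. It is also 1 of the 9 choroid plexus markers, with differences of 0.67, 5.65, -1.23 and 4.32 (log2 CPM) in mice 33 to 36. The widest were in mice 34 and 36, whose LNA218 libraries had the most choroid plexus marker RNA, and the part of that tissue was not tested. No tested partner gene passed an adjusted p of 0.05 (edgeR, quasi-likelihood).

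In the authors' deposited table, 0 of the 29 channel genes had an adjusted p under 0.05, against 0.235% of its 14884 genes. The authors' deposited table gave an unadjusted p under 0.05 to 2 of the 29, against 9.85% of all genes. These were Cacna1e, at a log2 fold change of -0.12 in the authors' deposited table, and Cacnb1, at -0.11. The authors' deposited table gave Scn8a -0.11, Cacna2d1 0.081 and Hcn4 0.28, where the paired fit gave -0.30, -0.17 and 0.072. Over the 29 genes the authors' deposited table had 15 above 0 and 14 below, with a median of 0.0036 against -0.016 over all its genes.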

How the data were processed

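The authors deposited estimated counts per gene, a sheet of natural log values and a results table. Per the submitters' processing notes, the tools were Salmon and edgeR and the build was GRCm39, without versions or roles. No source used here gives the annotation or any gene filter. The deposited natural log values equalled ln(CPM + 1) with TMM scaling to within 0.00303 and were used for that check only. The authors' deposited table gives log2 fold changes, average log2 CPM, a likelihood-ratio score and p-values per gene, and no source used here gives its model terms.

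Estimated counts, 69.88% of them not whole, were rounded. filterByExpr (minimum count 10) kept 14506 of 14884 genes. Hemispheres were compared by quasi-likelihood in edgeR 4.0.16 under R 4.3.3, after TMM scaling and blocking on the animal. Adjusted p-values are Benjamini-Hochberg over every tested gene. The pairing comes from the design text: both libraries of a pair are from the same animal. Deviations from group means correlated within pairs at 0.10, -0.60, 0.42 and 0.21 in mice 33 to 36. SEs come from the F statistic, and 95% intervals are not adjusted. Each hemisphere gave 1 library, so the replicates are 4 animals. The quasi-likelihood test also draws the variance of each gene towards that of the other genes. Its p-values and intervals therefore do not measure the spread of a single gene between animals alone. All 28 library pairs differed by more than sampling noise (lowest median chi-square 1.65, against 0.455).

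Within-animal differences are of log2 CPM with a prior count of 2. Levels per kilobase use the GENCODE M21 transcript (GRCm38) with the longest coding sequence, so no coordinates of the files are given. GC content and length were found for 13963 tested genes (96.26%), and the others were left uncorrected. The correction fitted splines (5 degrees of freedom each) to every library, over genes with an average log2 CPM above 3. Alternatives were no block, DESeq2 (1.42.0) and its size factors, upper-quartile scaling, 2 other filters, limma-voom (limma 3.58.1), a likelihood-ratio test, a hemisphere term, the GC and length correction, and each animal left out. The genes and lists were chosen with earlier results of these data known. The symbols matched 32 genes, of which 3 are not reported here. Values in every library are given for the 2 highest of each family and for the 5 smallest p-values on either side of 0, and for some others added after their values were seen.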

Additional observations from a re-analysis of the deposited data

Results flagged for a closer look

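Of 58 groups of 4 libraries checked (29 channel genes in LNA218 and NC), 4 had a library apart from the other 3, where chance gives about 1 in 20. The NC library of mouse 34 stood apart in 3 of them. There Cacna1c had 6.18 log2 CPM against 5.90 to 5.93 in the other NC libraries, and Cacna1e 7.80 against 7.34 to 7.38. Cacnb3 was low in the same library, at 7.92 against 8.18 to 8.23. In the NC library of mouse 35, Cacna1g had 6.51 log2 CPM against 6.20 to 6.24.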

How the results depend on the processing

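No channel gene passed under any alternative run. Over all genes the count at an adjusted p of 0.05, 0 in the paired fit, was 13 with DESeq2 and 11 with edgeR's likelihood-ratio test, from 0 to 6 with 1 animal left out (6 without mouse 34), and 13 without mice 34 and 36, a choice made after seeing the data that leaves 1 residual degree of freedom. Without the replicate block the count was 0 and the median log2 fold change of the channel genes -0.072, with 20 of 28 below 0. That median ran from -0.15 to -0.038 with 1 animal left out, was -0.038 without mouse 34, -0.036 with the GC and length correction, and -0.012 without mice 34 and 36. Of the 29 genes 11 hold a 7mer-m8 match and 6 an 8mer. Of the 10 highest genes per kilobase 7 are among the 10 highest by CPM, and 8 among the 10 highest per kilobase of coding sequence. Of 390 single-gene values under the alternatives 356 kept the sign and 34 did not, and 10 of the 28 genes kept it throughout. The sign turned with the GC and length correction for Cacna1a (0.0040), Cacna1i (0.0036), Cacna2d2 (0.0033), Cacnb3 (-0.030), Scn4b (0.0058) and Scn7a (0.19), with the hemisphere term for Cacna1i (0.022), Cacna2d2 (0.0063) and Cacnb3 (-0.019), with upper-quartile scaling for Scn4b (0.0033) and Scn7a (0.0048), and for Scn7a with limma-voom (0.0063) and without the replicate block (0.053). With 1 animal left out, the sign turned in the ranges of Cacna2d1 (-0.33 to 0.11), Cacna2d2 (-0.060 to 0.025), Cacna2d3 (-0.030 to 0.059), Cacna2d4 (-0.015 to 0.59), Cacnb1 (-0.13 to 0.017), Cacnb3 (-0.12 to 0.10), Cacnb4 (-0.41 to 0.070), Hcn2 (-0.027 to 0.15), Hcn3 (-0.17 to 0.042), Scn1a (-0.27 to 0.023), Scn2a (-0.30 to 0.065), Scn2b (-0.055 to 0.077), Scn3a (-0.45 to 0.076), Scn3b (-0.29 to 0.018), Scn4b (-0.13 to 0.15) and Scn7a (-0.34 to 0.23). Among genes that kept it, the values with 1 animal left out ran over Cacna1b (-0.18 to -0.079), Cacna1c (-0.30 to -0.097), Cacna1d (-0.28 to -0.066), Cacna1e (-0.46 to -0.071), Cacna1g (-0.12 to -0.042), Cacna1h (-0.22 to -0.11), Cacna1s (0.048 to 1.03), Cacnb2 (-0.24 to -0.015), Hcn4 (0.020 to 0.14) and Scn8a (-0.38 to -0.16). Where mouse 34 sets the sign, the cause was not tested. Scn7a, Scn9a and Cacna1s rest on at most 28 estimated counts per library, which limits what can be seen for them.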
